A study of Homo sapiens with 8 samples.

Results

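The integrated stress response and ATF4 target genes were compared between side population (SP) and non-side population (NSP) cells of J82, a human cell line derived from a bladder cancer. The 34 genes were taken by name from a list of stress sensors, ATF4 and its partner factors, feedback genes, amino acid supply genes and unfolded protein response genes, and all 34 were found among the 57820 genes of the count table. Both groups came from untreated J82 cultures kept in DMEM with 10% serum, and both were stained with the DNA dye Hoechst, which cells with active drug efflux pumps keep out. SP cells are the cells with low dye that flow sorting separated from the remaining NSP cells, with dead cells gated out of both by 7-AAD. There were 4 SP and 4 NSP mRNA libraries, numbered 1 to 4 in each group. The labels do not say whether these were separate cultures or separate sorts, so p-values measure only the spread between these libraries, which may be technical. All libraries come from a single cell line. Each is a bulk sample, in which fewer cells of a kind and less RNA per cell cannot be told apart.

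SP libraries held 1431823 to 1697218 counts each and NSP libraries 1489033 to 2073526. These totals are far below the raw reads per sample that the paper gives, and the reason was not tested. ABCB1, a drug efflux pump, was at 23.5 to 33.9 CPM (the count scaled by the normalized library size) in SP cells. In NSP cells ABCB1 was at 1.48 to 8.29 CPM, with a log2 fold change of 2.96 ± 0.38 (SE) and an adjusted p of 7.44e-04 by edgeR. Which pump kept the dye out was not tested. The share of counts on mitochondrially encoded genes was 3.46 to 7.57% in SP cells and 1.65 to 4.01% in NSP cells. Epithelial markers summed to 3428 to 4781 CPM in SP cells and 4669 to 6406 CPM in NSP cells over 12 genes, with KRT8 the most abundant and KRT20 and UPK3A without a count. Mesenchymal markers summed to 283 to 450 CPM and 501 to 873 CPM over 4 genes, with VIM the most abundant. Of the leukocyte markers, PTPRC and CD3E had no count, and the sum of 42.8 to 98.0 CPM in SP cells and 20.4 to 58.8 CPM in NSP cells was mostly CD14. Endothelial markers were at most 0.736 CPM in any library. With the mitochondrially encoded genes left out, 0 members were called and their median log2 fold change was -0.07, as with them. The part of the marker differences in the results given here was not tested.

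In the integrated stress response, kinases that sense endoplasmic reticulum (ER) stress, missing amino acids, heme shortage or viral RNA phosphorylate the translation factor eIF2. Most translation then slows while ATF4 mRNA is translated more, and ATF4 with its dimer partners switches on genes for amino acid uptake, amino acid synthesis, tRNA charging and redox balance. The unfolded protein response shares the ER-stress kinase EIF2AK3 (PERK) with this pathway and adds the ATF6 and XBP1 branches. Because ATF4 is set largely by translation, its mRNA level is not a measure of its protein.

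ATF4 dimers with C/EBP factors bind a composite element, searched here as TGATGNAA on both strands, in the window from 250 bases before to 50 bases after the gene start in RefSeq (GRCh38.p14). A window was present for 30 of the 34 genes, and 9 of the 30 held a match, against 4.46% of the 27305 genes with a window. The ER stress element (ERSE, both strands) matched 1 of 30 windows against 0.0916% of all genes, and the XBP1-type element TGACGTGG matched 1 of 30 against 0.927%. Of 73 other genes of the same pathways, described below, 62 had a window. Of these, 13 matched TGATGNAA, 5 the ERSE and 2 TGACGTGG. The genes were chosen by pathway, so these shares do not test the list. For the 34 genes, the stretches that hold the matches before the start are shown because these are the letters searched for the factors that name the pathway. They run 5′ to 3′ on the gene's strand, with the matched letters in capitals, where TTGCATCA is TGATGCAA read from the other strand.
HERPUD1: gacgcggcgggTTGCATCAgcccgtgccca
CEBPG: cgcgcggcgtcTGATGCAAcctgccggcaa
CHAC1: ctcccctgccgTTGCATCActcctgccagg
ASNS: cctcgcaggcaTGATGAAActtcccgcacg
GARS1: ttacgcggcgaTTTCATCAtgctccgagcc
AARS1: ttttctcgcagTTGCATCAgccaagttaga
XBP1: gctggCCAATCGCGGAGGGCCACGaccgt
ALDH18A1: aggccctcgccCCACGTCAacagcgtaggg

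On GRCh37, the build of the counts, each of these stretches matched exactly at a single place on its chromosome. The HERPUD1 stretch lies upstream of the gene at chr16:56965867-56965896 on the plus strand, the XBP1 stretch upstream at chr22:29196586-29196614 on the minus strand and the ALDH18A1 stretch upstream at chr10:97416510-97416539 on the minus strand. The CEBPG stretch lies in an intron at chr19:33864966-33864995 on the plus strand. The other 4 fall in an exon of a longer transcript of their own gene, at chr15:41245449-41245478 for CHAC1 and chr7:30634450-30634479 for GARS1 on the plus strand, and at chr7:97501770-97501799 for ASNS and chr16:70323578-70323607 for AARS1 on the minus strand. The NARS1, SLC3A2 and SLC7A1 matches lie after the start. A match of letters is a description and not a site. Of these 8 genes with a printed stretch, only HERPUD1 was among the genes called under the alternatives tried.

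The 34 genes covered a wide range of levels. Their counts summed over the 8 libraries ran from 23 for CHAC1 to 8609 for CEBPB, with a median of 512.5, and 6 genes had under 100 counts while 9 had over 1000. Per kb of the canonical transcript, CEBPB had the highest mean level over all libraries at 369.8 CPM per kb, followed by DDIT3 at 203 and SLC3A2, the heavy chain of the amino acid exchangers, at 104. EDEM1, which helps to remove misfolded glycoproteins from the ER, was lowest at 0.657 CPM per kb, below VLDLR at 0.692 and EIF2AK3 at 0.908. ATF4 was at 22.8 CPM per kb, in the middle of the order. DDIT4 had no canonical length in the annotation and was left out of the order. DDIT3 shares 355 bp of exon with MARS1 and 58 bp with MBD6 on the other strand. The strand setting of the counting is not given, so the order is of assigned counts and may not rank mRNA levels.

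Between SP and NSP cells, 29 of the 34 genes passed the filter on low counts and were tested. The filter left out EIF2AK3, EDEM1, CHAC1, ASNS and PSPH. None of the 29 was called higher or lower in SP cells by edgeR's quasi-likelihood test at a Benjamini-Hochberg adjusted p under 0.05 over all genes and a fold change over 1.3. That fit left out the replicate number, by which the libraries pair. The fit with it, given below, called 3 genes higher and 4 lower, beside 12.9% of all tested genes. In the fit without it, the background was 3.66% of the 9309 genes tested, with 152 higher (1.63%) and 189 lower (2.03%). DESeq2 also called 0 of the 33 genes to which it gave an adjusted p, beside 3.33% of all genes (1.28% higher and 2.05% lower). Without a filter on low counts edgeR called 5 of the 34 genes, 2 higher (HERPUD1 and CEBPB) and 3 lower (GDF15, PHGDH and SLC7A11), beside 2.59% of 26361 genes (1.15% higher and 1.45% lower). With no adjustment and p under 0.05, edgeR with the filter had 3 genes higher (HERPUD1, CEBPB and PPP1R15A) and 2 lower (MTHFD2 and SLC7A11), where 16.4% of all tested genes passed, 8.13% higher and 8.27% lower.

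The log2 fold changes of SP over NSP ran from -1.44 for SLC7A11 to 0.88 for HERPUD1, with 12 above 0 and 17 below, and had a median of -0.07 beside 0.01 over all tested genes. By role, the median was 0.36 for the 3 tested sensors and unfolded protein response genes, 0.24 for the 6 tested feedback genes and 0.00 for the 4 transporters. It was -0.30 for the 5 transcription factors, -0.39 for the 6 tested synthesis enzymes and -0.13 for the 5 tRNA synthetases. The plot of fold changes by role shows that the points farthest from 0 lay on both sides.

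**Figure D1:**
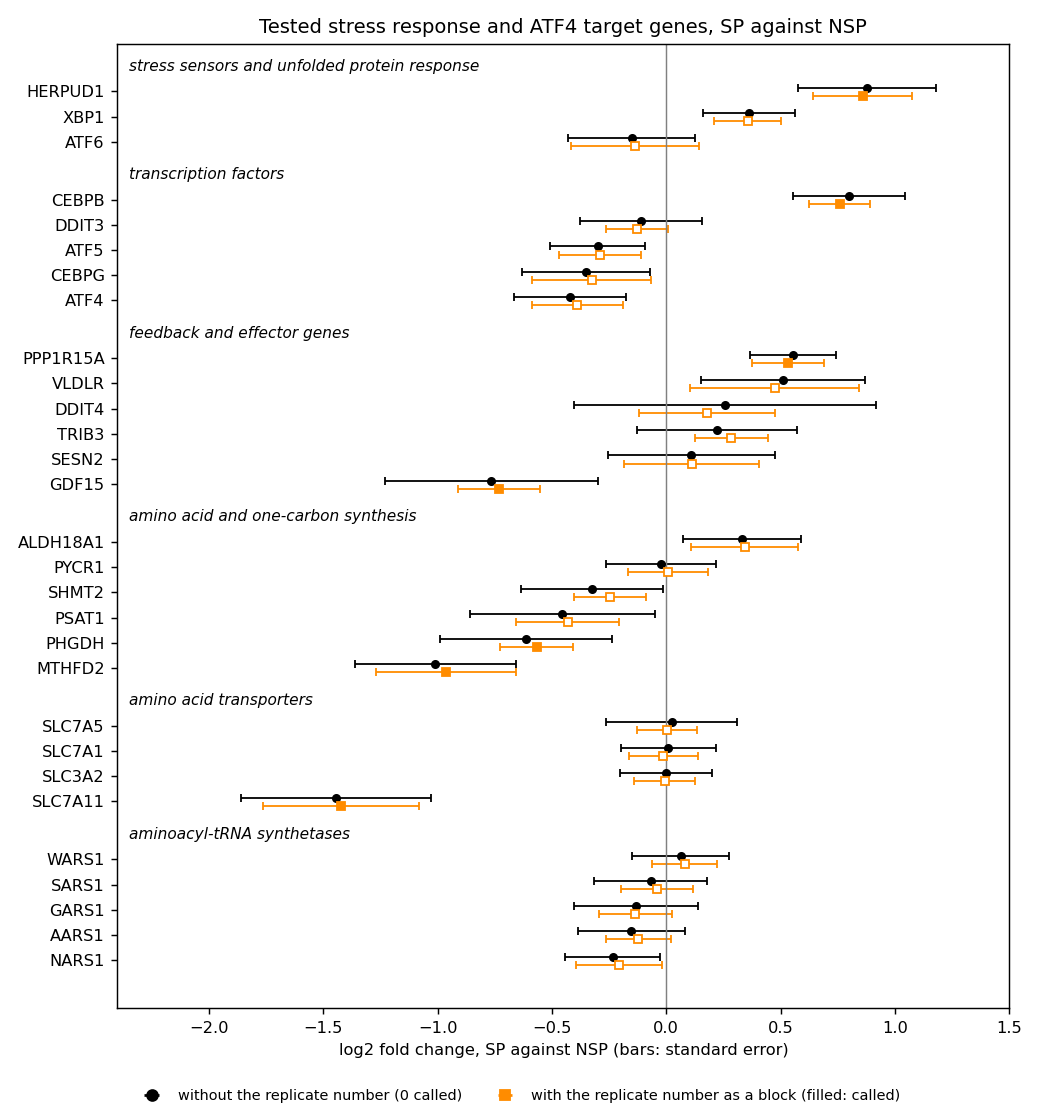
Log2 fold change of SP over NSP (x axis) for the 29 tested genes, grouped by role, with the standard error as a bar; circles are the fit without the replicate number and squares the fit with it as a block, filled where called. Circles run from -1.44 for SLC7A11 to 0.88 for HERPUD1, and 7 squares are filled.

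The SP and NSP libraries share the numbers 1 to 4, and same-numbered libraries deviated together. With the replicate number as a block, edgeR called 7 of the 29 genes (24.1%). HERPUD1, CEBPB and PPP1R15A were higher in SP cells, and GDF15, PHGDH, MTHFD2 and SLC7A11 were lower. The block also raised the background, to 12.9% of all tested genes (5.89% higher and 7.0% lower). The SP library was above the NSP library of its own number in all 4 numbers for 6 of the tested genes and below it in all 4 for 6, against 14.9% and 15.1% of all tested genes. PPP1R15A was the 1 gene whose groups did not overlap, against 9.75% of all tested genes. Two-sided exact permutation of the log2(CPM + 1) values, without the pairing, gave it an unadjusted p of 0.0286, which 4 libraries against 4 that do not overlap always give and which is the smallest possible. By the same exact permutation the p was 0.0571 for SLC7A11, 0.0857 for CEBPB, HERPUD1 and MTHFD2 and 0.2 or more for the other 29 genes.

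The transcription factors divided into CEBPB and the rest. CEBPB (ENSG00000172216, chr20:48807367-48809205, plus strand, a gene of a single exon) encodes a C/EBP factor that pairs with ATF4. It was at 1283, 893, 496.5 and 784 CPM in SP libraries 1 to 4 and at 504, 663, 351 and 465 CPM in NSP libraries 1 to 4. Every SP library was above the NSP library of its number, while SP library 3 lay below 2 of the NSP libraries. Its log2 fold change was 0.80 ± 0.24 (SE) with an edgeR adjusted p of 0.0901, and 0.76 with an adjusted p of 3.09e-06 with the replicate block. With 1 library left out at a time it ran from 0.54 without SP library 1 to 0.99 without SP library 3. The edgeR adjusted p ran from 0.0186, without SP library 3 and the only such fit to pass, to 0.257. CEBPB rests on 550 to 1781 counts per library, more than any other gene of the list.

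ATF4 (ENSG00000128272, chr22:39915700-39918688, plus strand), the factor that names the pathway, was at 33.1, 26.8, 20.6 and 30.9 CPM in SP libraries and 29.3, 51.4, 25.5 and 41.5 CPM in NSP libraries. SP was lower in 3 of 4 numbers and the groups overlapped. The difference did not pass in either fit, with a log2 fold change of -0.42 ± 0.24 (SE), an edgeR adjusted p of 0.425, and 0.207 with the block. Without NSP library 2 the log2 fold change was -0.21.

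The other 3 factors had log2 fold changes below 0 that did not pass. DDIT3, the C/EBP factor CHOP of prolonged stress, was at 216, 202, 86.1 and 203 CPM in SP cells and 212, 249, 112 and 187 CPM in NSP cells, with library 3 the lowest in both groups and a log2 fold change of -0.11 ± 0.27 (SE). ATF5, which like ATF4 is under translational control, had -0.30 ± 0.21. CEBPG, another dimer partner of ATF4, had -0.35 ± 0.28 and was lower in SP cells in all 4 numbers, at 8.66 to 16.1 CPM against 10.8 to 20.7 CPM.

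Among the unfolded protein response genes, HERPUD1 (ENSG00000051108, chr16:56966054-56978776, plus strand), an ER membrane protein of ER-associated degradation, was at 16.6, 36.9, 36.8 and 45.6 CPM in SP libraries and 14.9, 22.2, 11.5 and 25.6 CPM in NSP libraries. It was higher in SP cells in all 4 numbers, and only SP library 1 lay within the NSP range. The log2 fold change was 0.88 ± 0.30 (SE) with an edgeR adjusted p of 0.133, and 0.86 with an adjusted p of 0.00221 with the replicate block. With 1 library left out at a time it ran from 0.70 without SP library 4 to 1.10 without SP library 1. The edgeR adjusted p ran from 0.0344, without SP library 1 and the only such fit to pass, to 0.309.

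XBP1, the factor made from a spliced mRNA when IRE1 is active, was at 87.9, 119, 76.9 and 134 CPM in SP cells and 66.5, 103, 69.5 and 84.4 CPM in NSP cells. It was higher in SP cells in all 4 numbers with overlapping groups, and did not pass, with a log2 fold change of 0.36 ± 0.20 (SE) and edgeR adjusted p-values of 0.399 and, with the block, 0.0997. Gene counts do not separate the spliced from the unspliced mRNA. ATF6, the membrane-bound sensor and factor, had 8.83 to 14.4 CPM in SP cells and 10.9 to 16.0 CPM in NSP cells. EIF2AK3 had 4 to 10 counts in each SP and 3 to 9 in each NSP library, and EDEM1 had 3 to 7 and 5 to 12. The filter left both out. DESeq2 gave EIF2AK3 a log2 fold change of 0.16 ± 0.60 (SE) with an adjusted p of 0.967 and EDEM1 -0.63 ± 0.62 with an adjusted p of 0.8005, and edgeR without the filter gave 0.16 ± 0.50 and -0.62 ± 0.51.

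The feedback gene PPP1R15A (ENSG00000087074, chr19:49375469-49379316, plus strand) encodes GADD34, the stress-induced subunit that brings a phosphatase to eIF2 and ends the response. It was at 58.4, 77.7, 63.9 and 101.6 CPM in SP libraries and 50.0, 54.3, 46.6 and 53.9 CPM in NSP libraries. All SP libraries lay above all NSP libraries. PPP1R15A had a log2 fold change of 0.55 ± 0.19 (SE) with an edgeR adjusted p of 0.128, and 0.53 with an adjusted p of 0.0125 with the block.

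GDF15 (ENSG00000130513, chr19:18485541-18499986, plus strand), a secreted stress cytokine, was at 66.3, 40.9, 9.75 and 33.9 CPM in SP libraries and 105, 85.4, 20.4 and 38.7 CPM in NSP libraries. SP was lower in all 4 numbers, while within each group the libraries spread more widely than the groups differed. The log2 fold change was -0.77 ± 0.47 (SE) with an edgeR adjusted p of 0.451 without the block, and -0.73 ± 0.18 with an adjusted p of 0.00144 with it. Without the block, leaving out 1 library moved it from -0.41 without NSP library 1 to -1.19 without SP library 1.

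The remaining effectors did not pass in either fit. TRIB3, a pseudokinase induced by ATF4 and CHOP, was at 37.4 to 111 CPM in SP cells and 27.4 to 114 CPM in NSP cells. SESN2 and DDIT4, which restrain mTORC1, had log2 fold changes of 0.11 ± 0.37 (SE) and 0.26 ± 0.66. The DDIT4 value rests on library 1 of both groups. SP library 1 was at 42.5 CPM against 3.35 to 7.58 CPM in the other SP libraries, and the value was -1.12 without it. NSP library 1 was at 27.1 CPM against 4.15 to 8.40 CPM in the other NSP libraries, and the value was 1.09 without it. VLDLR, a lipoprotein receptor, had 0.51 ± 0.36 and was higher in SP cells in all 4 numbers. CHAC1, which degrades glutathione, had 1 to 5 counts per library in both groups.

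**Figure D2:**
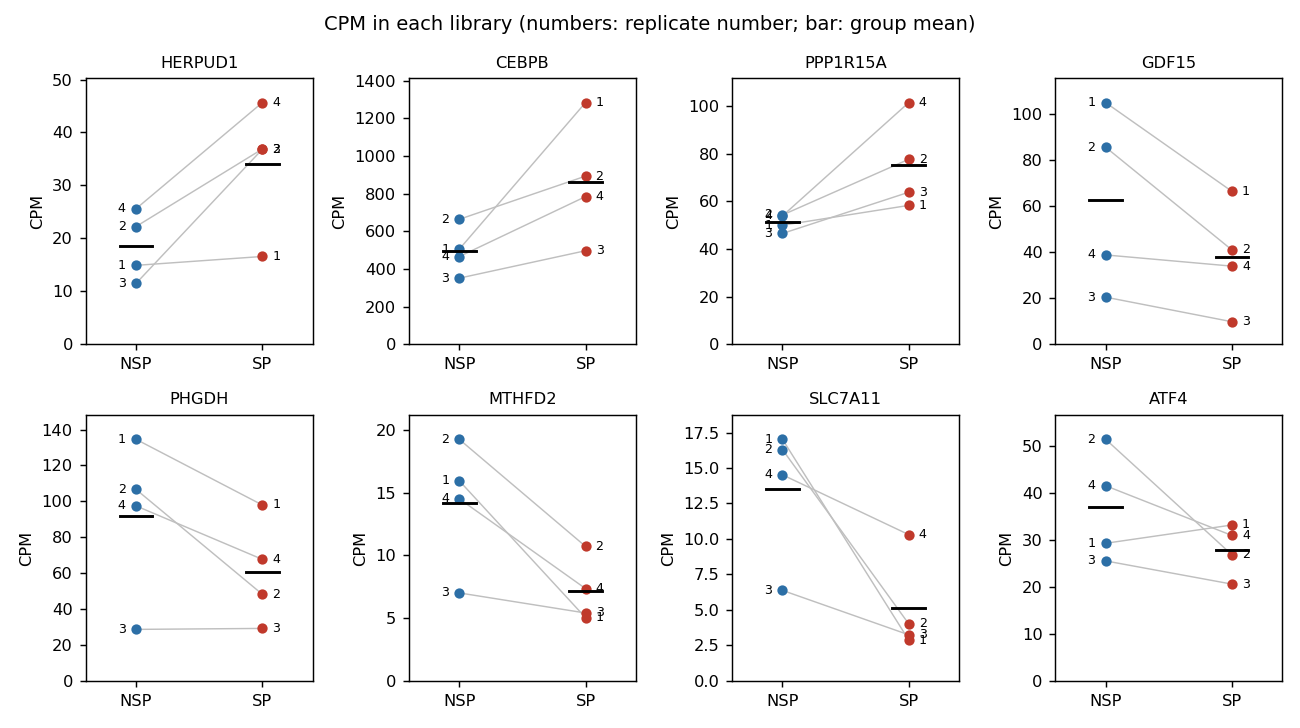
CPM (y axis) in each of the 8 libraries, with same-numbered SP and NSP libraries joined by a line and group means as bars, for ATF4 and the 7 genes called with the replicate block. CEBPB, HERPUD1 and PPP1R15A are higher in SP in all 4 numbers, GDF15, MTHFD2 and SLC7A11 lower in all 4, and PHGDH and ATF4 lower in 3 of 4.

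Of the synthesis enzymes, MTHFD2 (ENSG00000065911, chr2:74413299-74444692, plus strand), a mitochondrial folate enzyme, was at 5.04, 10.7, 5.41 and 7.36 CPM in SP libraries and 16.0, 19.3, 7.02 and 14.5 CPM in NSP libraries. It was lower in SP cells in all 4 numbers, with SP libraries 2 and 4 above NSP library 3. MTHFD2 had a log2 fold change of -1.01 ± 0.35 (SE) with an edgeR adjusted p of 0.137, and -0.96 with an adjusted p of 0.0208 with the block. It rests on 7 to 39 counts per library.

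PHGDH (ENSG00000092621, chr1:120191034-120286841, plus strand), the first enzyme of serine synthesis, was at 98.0, 48.3, 29.2 and 67.7 CPM in SP libraries and 135, 107, 28.7 and 97.5 CPM in NSP libraries. It was lower in SP cells in 3 of 4 numbers and about equal in number 3, the lowest library of both groups. Between groups the log2 fold change was -0.61 ± 0.38 (SE) with an edgeR adjusted p of 0.452, and -0.57 ± 0.16 with an adjusted p of 0.00703 with the block. Without the block, leaving out 1 library moved it from -0.37 without SP library 3 to -0.95 without SP library 1.

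The next enzyme of that pathway, PSAT1, was at 23.1, 31.5, 5.96 and 19.9 CPM in SP libraries and 37.8, 36.1, 11.5 and 21.4 CPM in NSP libraries, lower in SP cells in all 4 numbers, and did not pass (-0.45 ± 0.40). PSPH, the last enzyme, had 2 to 12 counts in each SP and 6 to 16 in each NSP library. ASNS, the asparagine synthetase used as a readout of the amino acid response, was lower in SP cells in all 4 numbers, at 0 to 14 counts against 2 to 37, and was left out by the filter. Without the filter edgeR gave it a log2 fold change of -1.04 ± 0.41 (SE) with an adjusted p of 0.211, and DESeq2 gave -0.95 ± 0.78 with an adjusted p of 0.732. SHMT2, the mitochondrial serine to glycine enzyme, had -0.32 ± 0.31 (SE). The proline synthesis enzymes ALDH18A1 and PYCR1 had 0.33 ± 0.26 and -0.02 ± 0.24.

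SLC7A11 (ENSG00000151012, chr4:139085251-139163503, minus strand), the cystine importer of system xc- that feeds glutathione synthesis, had the log2 fold change farthest from 0 of the list. It was at 2.88, 4.02, 3.25 and 10.3 CPM in SP libraries and 17.0, 16.3, 6.38 and 14.5 CPM in NSP libraries. It was lower in SP cells in all 4 numbers, with SP library 4 above NSP library 3. The log2 fold change was -1.44 ± 0.42 (SE), or 2.72-fold lower, with an edgeR adjusted p of 0.0702, and -1.42 ± 0.34 with an adjusted p of 0.00116 with the replicate block. Leaving out SP library 4 gave -2.00 with an adjusted p of 0.0210, and leaving out NSP library 3 gave -1.67 with 0.0299. The other 6 libraries left out in turn moved it as far as -1.26, and over all 8 the edgeR adjusted p reached 0.187. The gene rests on 4 to 14 counts in each SP and 10 to 33 in each NSP library.

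The other transporters lay close to 0. SLC7A5 and its heavy chain SLC3A2, which form the large neutral amino acid exchanger, had log2 fold changes of 0.02 ± 0.29 (SE) and -0.00 ± 0.20, and the arginine and lysine importer SLC7A1 had 0.01 ± 0.21. SLC7A11 uses the same heavy chain, SLC3A2. The tRNA synthetases, which load amino acids onto tRNA, ran from -0.23 ± 0.21 for NARS1 to 0.06 ± 0.21 for WARS1. AARS1, GARS1 and SARS1 lay between them at -0.15 ± 0.23, -0.13 ± 0.27 and -0.07 ± 0.25. None of the 5 passed in either fit.

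The levels of many genes of the list moved with the replicate number in both groups. Of the 28 genes with at least 100 counts, 18 had their lowest SP value in library 3, 22 had their lowest NSP value in library 3, and 17 had both. Over the 8662 genes with at least 100 counts these shares were 29.4%, 29.0% and 11.3%. None of the 28 had its highest value in library 3 of both groups, against 10.6% of all such genes.

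Summed over the 34 genes, the level was 3536, 3093, 1730 and 2700 CPM in SP libraries 1 to 4 and 2704, 3181, 1577 and 2373 CPM in NSP libraries 1 to 4. Library 3 was lowest in both groups, and CEBPB held the largest part of each sum. The plot of summed levels by role shows library 3 lowest in both groups for the transcription factors, feedback genes, synthesis enzymes, transporters and synthetases. The synthesis enzymes summed to 137 CPM in NSP library 3 and to 257 to 398 CPM in the other NSP libraries. The transporters summed to 384 CPM in SP library 3 and 410 CPM in NSP library 3, and to 599 to 839 CPM elsewhere. Library 3 had the highest epithelial marker sum of either group, at 4781 CPM in SP and 6406 CPM in NSP cells. What part any of this has in the levels was not tested. The labels give no date or batch beside the number.

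**Figure D3:**
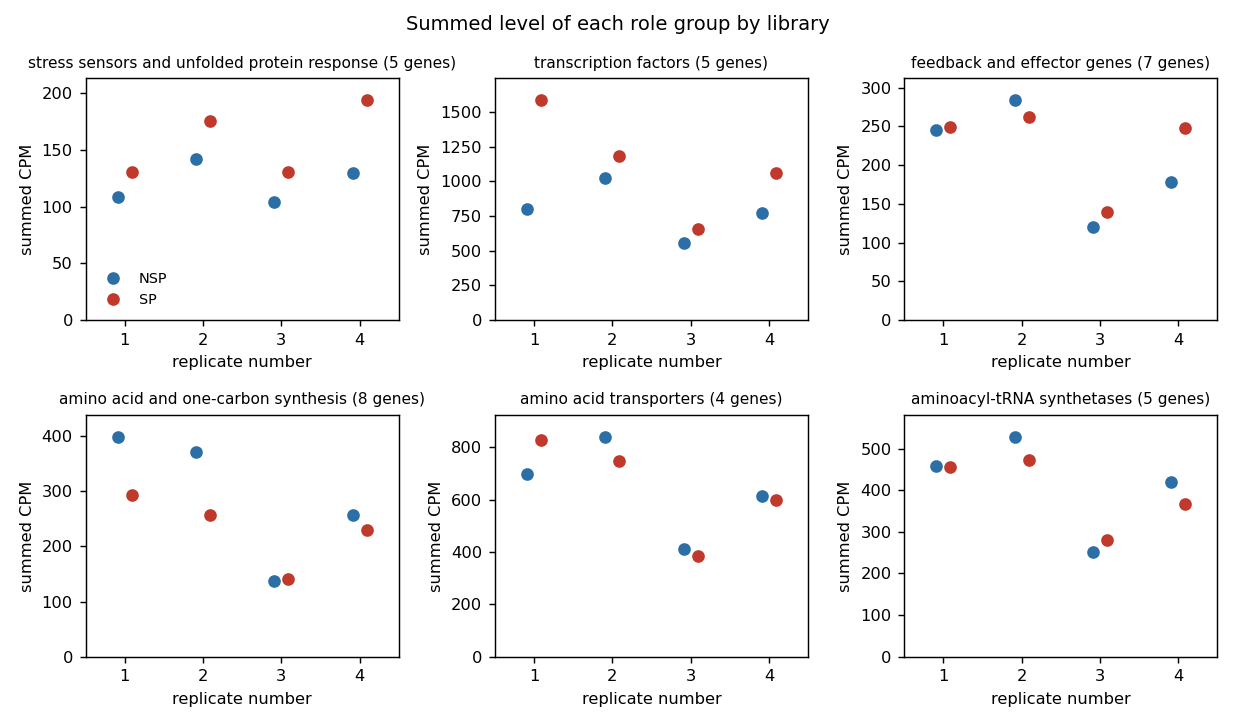
Summed CPM of the genes of each role in SP and NSP libraries 1 to 4. Library 3 is lowest in both groups for 5 of the 6 roles, and the sum over all 34 genes there is 1730 CPM in SP and 1577 CPM in NSP cells.

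The strand setting of the counting is not given in the sources used here, and reads of a gene and of a gene on the other strand may not be separated. An exon of 13 of the 34 genes overlaps an exon on the other strand, in 17 pairs, of which 13 pairs with 11 of the genes had a partner with at least 100 counts. The partner had more counts per kb than the stress response gene in 10 of these 13 pairs. All 7 long noncoding RNA (lncRNA) partners did, by 12.5 to 48.6 times with a median of 38.2. These lncRNAs lie across from SLC7A11, SLC7A5, WARS1, PYCR1, VLDLR, EIF2AK3 and EDEM1. ENSG00000258666 overlaps WARS1 exons by 385 bp, the length of its canonical transcript, and had 10592 counts against 1492 for WARS1. ENSG00000263585 overlaps PYCR1 exons by 450 bp, also its canonical length, and had 5059 counts against 590 for PYCR1. Whether mRNA reads were counted on the other strand was not tested, here or for genes without a partner. The counts alone do not show from which gene of a pair the reads came.

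SLC7A11-AS1 (ENSG00000250033, chr4:138978618-139099331, plus strand, lncRNA) overlaps the exons of SLC7A11 by 865 bp. It had 2281 counts in all and was at 98.0, 180, 54.1 and 97.2 CPM in SP libraries and 223, 261, 212 and 251 CPM in NSP libraries. All SP libraries lay below all NSP libraries. It fell in SP cells, with a log2 fold change of -1.15 ± 0.26 (SE) and an edgeR adjusted p of 0.0200, which was 0.0539 without SP library 4 and 0.0679 without NSP library 2. The block gave -1.24 with 8.82e-12 and DESeq2 an adjusted p of 0.00205. SLC7A11 itself, with far fewer counts, had -1.44.

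The lncRNA ENSG00000268509 (chr3:5228857-5229983, minus strand), across 631 bp of EDEM1 exons, was at 22.3, 15.4, 14.6 and 19.9 CPM in SP libraries and 29.3, 41.5, 36.4 and 31.1 CPM in NSP libraries. The groups did not overlap. It fell in SP cells by 0.95 ± 0.22 (SE) on the log2 scale, with an edgeR adjusted p of 0.0251, which was 0.0801 without SP library 2, 0.0612 without SP library 3 and 0.0982 without NSP library 2. EDEM1, left out by the filter, had a log2 fold change of -0.63 ± 0.62 (SE) by DESeq2.

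These were the 2 partners called of 13, both lower, beside 3.66% of all tested genes called and 2.03% called lower. With the block 5 of the 13 were called, beside 12.9% of all tested genes. Across from MTHFD2 lie SLC4A5, a bicarbonate transporter, and ENSG00000264324, a gene that shares exons with SLC4A5 and with DCTN1 on its own strand. SLC4A5 had a log2 fold change of -0.62 ± 0.26 (SE) and ENSG00000264324 had -0.39 ± 0.25, and both were called lower with the block alone. MARS1, the methionine tRNA synthetase across from DDIT3, had 0.41 ± 0.25 and was called higher with the block alone. The remaining 8 partners were not called in either fit. Their log2 fold changes were 0.42 for VLDLR-AS1, 0.28 for ENSG00000225420 (EIF2AK3), 0.25 for DDX19B (AARS1) and 0.20 for MBD6 (DDIT3). They were -0.03 for ENSG00000258666 (WARS1), -0.10 for NUP62 (ATF5), -0.11 for ENSG00000260466 (SLC7A5) and -0.17 for ENSG00000263585 (PYCR1).

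**Figure D4:**
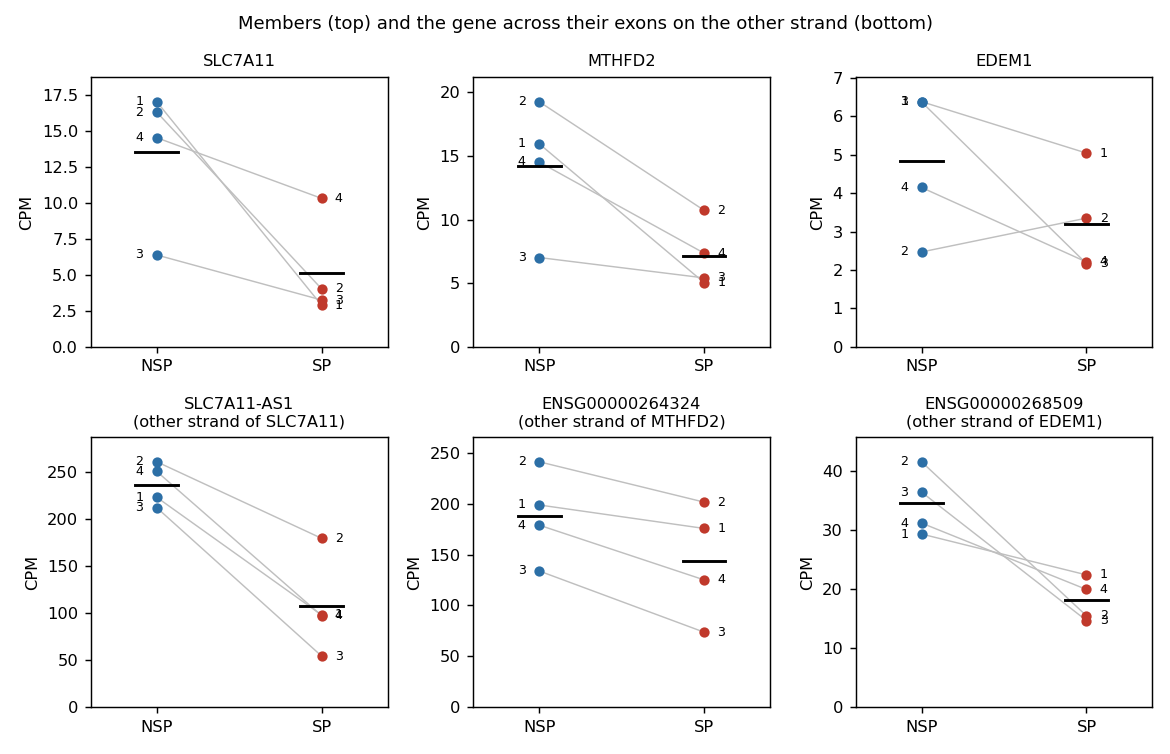
CPM in each NSP and SP library, with same-numbered libraries joined and group means as bars, for SLC7A11, MTHFD2 and EDEM1 (top) and a gene on the other strand of each (bottom). SLC7A11-AS1 lies at 54.1 to 180 CPM in SP and 212 to 261 CPM in NSP cells and ENSG00000268509 at 14.6 to 22.3 and 29.3 to 41.5 CPM, with no overlap of the groups.

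Copies elsewhere in the genome can also take reads. The annotation names pseudogenes after XBP1, ATF4, ASNS, PSAT1, PSPH, MTHFD2, SLC7A5, WARS1, GARS1, AARS1 and NARS1, with up to 7 for MTHFD2. Counts assigned to these copies were few, at 27 for ATF4, 18 for PSAT1, 8 for XBP1 and for MTHFD2, and 0 to 2 for the rest. How the counting treated reads that match several genes is not given in the sources used here.

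A further 73 genes of the same pathways were read from the same test, of which 64 were tested. They hold the other eIF2 kinases, the eIF2 and eIF2B subunits, ER chaperones, the other cytosolic tRNA synthetases, other transporters and enzymes and other ATF4 targets. By edgeR 1 of them, ATF3, rose in SP cells and 0 fell, beside 1.63% higher and 2.03% lower among all tested genes, and their median log2 fold change was 0.01. At an unadjusted p under 0.05, edgeR had 4 of the 64 higher and 0 lower, beside 8.13% and 8.27% of all tested genes, and DESeq2 had 3 higher and 0 lower with 0 called.

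ATF3, a repressor that ATF4 and other stress inputs induce, was at 12.2, 14.7, 7.04 and 19.9 CPM in SP libraries and 3.72, 3.95, 7.65 and 4.15 CPM in NSP libraries. Number 3 was the 1 number in which SP was not above NSP. The log2 fold change was 1.45 ± 0.37 (SE) with an edgeR adjusted p of 0.0423 on 6 to 27 counts per library, and 0.0554 by DESeq2. The call was lost without SP library 1, 2 or 4 and without NSP library 1, 2 or 4, with adjusted p-values of 0.0659 to 0.135. The next 4 genes by p were MBTPS1, the protease that releases ATF6 (0.48 ± 0.18), the ER degradation ligase SYVN1 (0.38 ± 0.15), the chaperone DNAJC3 (0.80 ± 0.32) and the arginine tRNA synthetase RARS1 (0.61 ± 0.29), with edgeR adjusted p-values of 0.199 to 0.321. The groups did not overlap for 2 of the 64, MBTPS1 and SYVN1, beside 9.75% of all tested genes. The ER chaperone and degradation genes had a median of 0.15, with 10 of 14 tested genes above 0 and none called in either fit. With the block, edgeR called ATF3 and MARS1 higher and CBS and NUPR1 lower, 4 of 64 beside 12.9% of all tested genes. CBS (-0.68 ± 0.34), which makes cystathionine from homocysteine, and the stress factor NUPR1 (-0.75 ± 0.42) were named after their values were seen.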

How the data were processed

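RNA-seq counts of 4 SP and 4 NSP libraries of J82 cells were analysed. The authors prepared libraries with the KAPA mRNA HyperPrep kit, aligned single-end reads to hg19 with STAR and counted them on gencode version 19 genes with featureCounts (Subread), and they deposited raw counts per gene without normalization. The strand setting and the handling of reads that match several genes are not given in the sources used here. Libraries were grouped by their titles, and 0 columns of other samples were found.

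Names and positions came from GENCODE 44 lifted to GRCh37. An annotation was found for 55538 of 57820 genes, and the rest held 4.06% of counts. Promoter windows came from RefSeq (GRCh38.p14) and were placed on GRCh37 by exact match. PSPH, SHMT2, PYCR1 and SLC7A11 had none.

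SP and NSP counts were compared by edgeR 4.0.16 under R 4.3.3 (TMM, filterByExpr, minimum count 10 and minimum total 15, glmQLFit and glmQLFTest) without a covariate, and called at an adjusted p under 0.05 and a fold change over 1.3. The method was tested on simulated counts of independent libraries, without the pairing by number found here, so that test does not cover the pairing. CPM used TMM-normalized library sizes, and a standard error is the log2 fold change divided by the root of F. Single genes were compared by exact two-sided permutation of log2(CPM + 1) in Python 3.11.15 with scipy 1.17.1. Replicates of a group differed by more than sampling noise (chi-square divided by its degrees of freedom, 5.93 to 14.4).

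The members and lists were chosen with earlier results of these data known. Named were all 34 members, the called genes and the 5 smallest p-values of the pathway list, opposite-strand partners with at least 100 counts, ABCB1, ABCG2 and the most abundant marker of each list. ABCG2 had 0 to 4 counts per library. Of 31 marker genes, 30 were found. Immediate early genes summed to 473 to 582 CPM in SP and 413 to 489 CPM in NSP libraries, with JUNB the most abundant.

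Deviations of same-numbered SP and NSP libraries from their group means correlated at 0.203 to 0.380, and each of the 8 libraries correlated best with the library of its own number, so the numbers pair the libraries. The study's methods name DESeq2 and mention no replicate term. The comparison without the number was the main one here, and the block was an alternative. The main fit, its standard errors and the permutation tests leave this pairing out. Which members were called differed with and without the block. Alternatives were the replicate block, DESeq2 1.42.0, DESeq2 size factors and upper-quartile normalization in edgeR, a table with no low-count filter, a minimum of 10 counts in every library, leaving out mitochondrially encoded genes, leaving out genes with an exon overlap on the other strand, and leaving out each library.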

Additional observations from a re-analysis of the deposited data

Results flagged for a closer look

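Within each group of 4 libraries, the highest or lowest value was set against the other 3, and 6 of the 94 groups examined had a library whose gap to its nearest neighbour took up an unusually large part of the group's range. Chance alone gives such a gap in about 1 in 20 groups. DDIT3 in SP library 3, the low value of 86.1 CPM, stood apart by 0.894 of the range. DDIT4 in SP library 1, the high value of 42.5 CPM, stood apart by 0.892. SLC7A11 in SP library 4, at 10.3 CPM against 2.88 to 4.02 CPM in the other SP libraries, stood apart by 0.847. ATF3 in NSP library 3, the high value of 7.65 CPM, stood apart by 0.892. Among the opposite-strand partners, ENSG00000225420 across from EIF2AK3 stood apart in NSP library 3 by 0.955, and NUP62 across from ATF5 stood apart in NSP library 4 by 0.854.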

How the results depend on the processing

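Depth limits these results: 6 of the 34 genes have under 100 counts in all. With the replicate block, which pairs libraries by number, 548 genes were higher and 652 lower in SP cells, with 3 members higher and 4 lower, 4 other pathway genes and 5 opposite-strand partners called. Without a filter on low counts, 303 genes were higher and 381 lower, with 2 members higher (HERPUD1 and CEBPB), 3 lower (GDF15, PHGDH and SLC7A11) and 2 other pathway genes. Without genes that overlap an exon on the other strand, 59 were higher and 62 lower, with 0 other pathway genes. DESeq2 and a minimum of 10 counts in every library also gave 0 other pathway genes. The reason for these changes was not tested, beside the fewer genes in the smaller tables.

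Leaving out 1 library at a time gave 69 (without NSP library 2) to 164 genes higher, 89 (without NSP library 2) to 181 lower, 0 to 1 members higher, 0 to 1 members lower, 0 to 1 other pathway genes, and 0 (without NSP library 2) to 2 opposite-strand partners. The median of the members was -0.20 without SP library 1 and 0.12 without SP library 3. These fits had no replicate block, so the same-numbered library of the other group stayed in. Within same-numbered pairs, the median SP minus NSP difference in log2(CPM + 1) was -0.018, -0.110, 0.016 and -0.064 for numbers 1 to 4. That median covers the 28 members with at least 100 counts. Signs near 0 turned: PYCR1 was 0.0062 with the block, SLC3A2 0.014 with upper-quartile normalization, and SLC7A1 -0.0083 by DESeq2, -0.0097 without the filter, -0.014 with the block and -0.043 without overlapping genes. With 1 library left out, values spanned -0.30 to 0.12 for DDIT3, -0.031 to 0.66 for TRIB3, -0.17 to 0.40 for SESN2, -1.12 to 1.09 for DDIT4, -0.16 to 0.15 for PYCR1, -0.26 to 0.23 for SLC7A5, -0.15 to 0.16 for SLC3A2, -0.23 to 0.14 for SLC7A1, -0.11 to 0.20 for WARS1, -0.25 to 0.15 for SARS1, -0.36 to 0.086 for GARS1, -0.34 to 0.13 for ENSG00000260466 and -0.18 to 0.13 for ENSG00000258666. Of 734 values for 48 named genes, 661 kept their direction and side of the threshold. Another 41 changed sign, 19 gained a call and 13 lost one. Most of these genes were not called in the main fit, so for them keeping the side means staying uncalled.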
